A study of Mus musculus with 30 samples.

Results

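RNA from the dorsal root ganglia (DRG) of female mice was sequenced in 2 sets of libraries that differ in how rRNA was kept out, PRL_Sh and PRL, and these 6 libraries were compared over every gene counted. They were chosen by their labels, 3 PRL_Sh and 3 PRL libraries of 30 libraries in the series. All are labelled as from C57BL/6J mice aged 10 to 12 weeks and treated with prolactin. The 3 PRL_Sh libraries are labelled as mRNA and the 3 PRL libraries as rRNA-depleted RNA, and the 3 Veh libraries of female DRG, labelled as vehicle, are also rRNA-depleted. The protocol text lists a TruSeq mRNA kit and a KAPA RiboErase kit, 500 ng of RNA per library, 1 µg of prolactin injected into the paw, and single injections or daily injections over 12 days, without assigning samples to a schedule or saying what Sh stands for. Kit and group coincide in every library, so the 2 cannot be told apart in any value below. Anything else that went with the group, mouse background included, cannot be told apart from the kit either. Nothing in the labels says that replicates are separate animals, so a p-value here reflects how far these samples scatter, which may be technical scatter alone.

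DRG hold the cell bodies of sensory neurons, with satellite glia around them and Schwann cells along their axons. A kit that selects mRNA binds the poly(A) tail added to the 3′ end of most messenger RNAs. Small nucleolar RNAs, the RNA subunits of RNase P and RNase MRP and the mRNAs of replication-dependent histones are known to lack such a tail; the histone mRNAs end after a short stem-loop instead. rRNA depletion removes ribosomal RNA by hybridisation and leaves RNAs with and without a tail, unspliced RNA included.

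Sequences of RNAs that differed strongly between the libraries, and of related RNAs that did not, are shown first so that their stem-loops and boxes can be compared. In 5 replication-dependent histone genes the stem-loop, in capitals, was found in the transcript models of GENCODE M21 (GRCm38), with 5 bases on each side in lower case. In the order shown, 770, 51, 1153, 840 and 1643 bases of the model follow the stem-loop, so these letters are not the model ends. The first 3 genes were lower by over 10-fold in PRL_Sh libraries and the last 2 by under 2-fold, and these genes were chosen after their values were seen.
Hist1h4d (chromosome 13): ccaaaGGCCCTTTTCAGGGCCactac
Hist1h3b (chromosome 13): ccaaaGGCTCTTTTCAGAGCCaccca
Hist1h1e (chromosome 13): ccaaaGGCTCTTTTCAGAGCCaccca
Hist1h1c (chromosome 13): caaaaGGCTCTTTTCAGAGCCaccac
Hist3h2a (chromosome 11): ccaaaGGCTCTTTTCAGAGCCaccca
Snord17, which guides chemical modification of other RNAs, is given whole and Rpph1, the RNA subunit of RNase P, by its 5′ part, because PRL_Sh libraries held no or almost no read of them; capitals in Snord17 mark the first TGATGA (the C box letters) and the last CTGA (the D box letters).
Snord17 (chromosome 2): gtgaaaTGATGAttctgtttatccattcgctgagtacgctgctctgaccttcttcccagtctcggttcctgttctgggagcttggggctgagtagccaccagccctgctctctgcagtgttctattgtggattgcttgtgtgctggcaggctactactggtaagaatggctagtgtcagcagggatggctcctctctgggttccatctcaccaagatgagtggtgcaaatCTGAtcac
Rpph1 (chromosome 14): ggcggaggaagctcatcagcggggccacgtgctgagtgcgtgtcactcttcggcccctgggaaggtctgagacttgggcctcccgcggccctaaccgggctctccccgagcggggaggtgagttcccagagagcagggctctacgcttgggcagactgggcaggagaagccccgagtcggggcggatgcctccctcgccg
The microRNA entries of the files count reads over the hairpin gene, which cannot be assigned to an arm, so the mature RNAs and their seeds were not measured. For 3 of the 6 entries named by rule both mature sequences of RefSeq (GRCm38.p6) are shown for reference, with the seed (bases 2 to 8) in capitals.
miR-138-5p: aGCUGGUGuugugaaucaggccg
miR-138-1-3p: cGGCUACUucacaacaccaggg
miR-337-5p: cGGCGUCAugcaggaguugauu
miR-337-3p: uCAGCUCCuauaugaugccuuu
miR-493-5p: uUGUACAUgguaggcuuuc
miR-493-3p: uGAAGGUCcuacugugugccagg
All 6 microRNA entries named by rule had mature sequences in the table, and their 12 mature sequences had 12 different seeds.

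The PRL_Sh libraries were deeper. Reads assigned to genes numbered 24.5, 21.96 and 26.5 M in PRL_Sh libraries, against 9.68, 11.2 and 9.35 M in PRL libraries and 10.3, 12.2 and 10.2 M in Veh libraries. At an equal depth of 6.87 M gene reads, 16425 to 16561 genes would have a read in PRL_Sh libraries and 16721 to 16830 in PRL libraries. Reads were seen in both groups for 17435 genes, in PRL_Sh alone for 779, in PRL alone for 538 and in neither for 3857. DRG identity was checked with Scn10a, the gene of a nociceptor sodium channel, at 921, 1100 and 1194 CPM (gene reads scaled to a common library size, normalised by TMM) in PRL_Sh libraries and at 960, 975 and 1052 CPM in PRL libraries. The groups overlapped for this gene. Of the markers of other tissues, several sets were uneven between libraries of a group. Skeletal muscle genes summed to 532, 1866 and 178 CPM in PRL_Sh libraries, against 30360, 5198 and 719 CPM in PRL libraries, with PRL replicate 1 highest. Adipocyte genes summed to 65.1, 137 and 60.3 CPM in PRL_Sh libraries and to 604, 199 and 260 CPM in PRL libraries. Oligodendrocyte and astrocyte genes summed to 347, 154.6 and 130 CPM in PRL_Sh libraries and to 202, 189.5 and 189.4 CPM in PRL libraries. Gad1, Gad2, Slc32a1 and Slc6a5, genes of inhibitory neurons of the spinal cord that were singled out after their values were seen, stood at 15.8, 8.20, 12.6 and 6.10 CPM in PRL_Sh replicate 1 and at 0.963 CPM or less in each of the other 5 libraries. The part of PRL replicate 1 and PRL_Sh replicate 1 in each result was not tested beyond leaving them out.

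The share of reads that fell on a single gene was higher in PRL_Sh libraries by a ratio of 2.05. It was 56.4%, 56.8% and 56.7% of all reads in the file in PRL_Sh libraries and 27.7%, 27.5% and 27.5% in PRL libraries, with 26.4% to 27.2% in Veh libraries. Reads on no annotated feature, which include introns and the space between genes, made up 10.8%, 11.3% and 10.9% in PRL_Sh libraries and 35.6%, 35.8% and 35.2% in PRL libraries. Ambiguous reads, which overlap more than one gene, made up 0.203%, 0.195% and 0.198% in PRL_Sh libraries and 0.0757%, 0.0758% and 0.0733% in PRL libraries. No value of one group fell within the range of the other. Reads with more than one place in the genome made up 32.6%, 31.7% and 32.2% in PRL_Sh libraries and 36.7%, 36.6% and 37.2% in PRL libraries. For each of these 4 categories an exact permutation test over the libraries, two-sided, gave p = 0.10, the smallest that 3 against 3 allows. Among uniquely placed reads alone, 83.5% ± 0.29 were on genes in PRL_Sh libraries and 43.7% ± 0.19 in PRL libraries (SD, n = 3 each). In the paw the shift was similar for genes, 42.7% ± 0.45 in PRL_Sh and 23.8% ± 1.27 in PRL libraries, but ran the other way for reads with several places, at 47.0% ± 1.13 in PRL_Sh and 43.4% ± 1.69 in PRL libraries (SD, n = 3 each; exact permutation p = 0.10 for both). The tissue difference in these shares was not tested. No read was counted as unaligned or of low quality in any of these libraries. The names of the 5 summary lines were spelled differently in the PRL_Sh files of DRG and paw than in all other files, so the format of the counting output also went with the group.

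**Figure D1:**
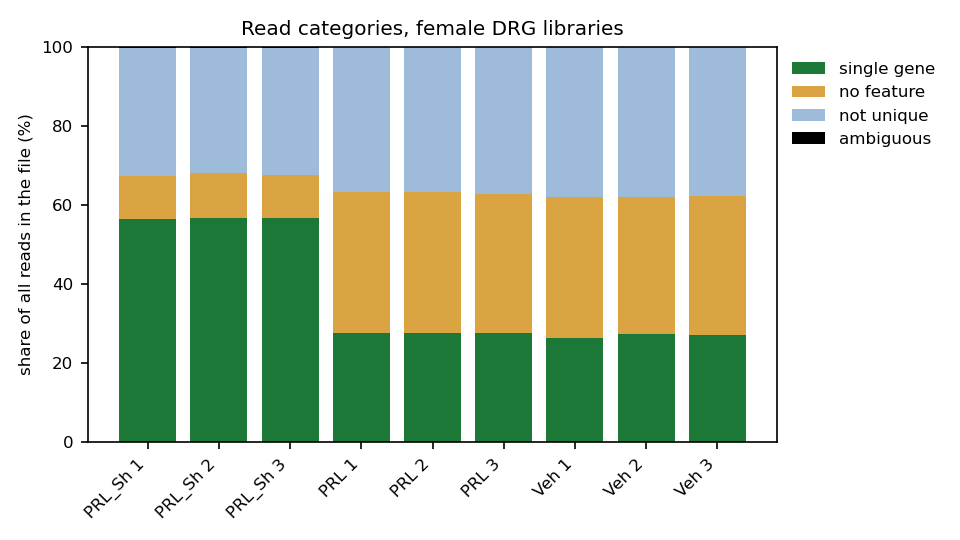
Share of all reads in each file (%) that fell on a single gene, on no feature, on several places or on more than one gene (ambiguous), for 3 PRL_Sh, 3 PRL and 3 Veh libraries of female DRG. The gene share stands at 56.4% to 56.8% in PRL_Sh, 27.5% to 27.7% in PRL and 26.4% to 27.2% in Veh libraries; ambiguous reads are too few to be seen at this scale.

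Over all genes, most of those tested differed between PRL_Sh and PRL libraries. Of 14985 tested genes, 4392 were higher and 4843 lower in PRL_Sh (edgeR's quasi-likelihood test, adjusted p under 0.05), together 61.6%, of which higher calls were 29.3% of the tested genes and lower calls 32.3%. Changes of 2-fold or more were uneven in direction, with 342 genes higher (2.28%) and 2338 lower (15.6%). The libraries of the groups did not overlap for 10173 genes (67.9%). These counts are the background against which each count below stands. Scaling mattered for direction: with gene reads as the sole scale, without TMM, the median change of all genes was 0.22 in place of -0.0039 on the log2 scale and 6466 genes were higher and 3642 lower. PRL libraries against Veh libraries, both rRNA-depleted, gave 9 genes higher and 25 lower of 14442 (0.235%; 0.0623% higher and 0.173% lower), with 0.0485% higher and 0.0554% lower by 2-fold or more.

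Most replication-dependent histone genes were lower in PRL_Sh libraries, many of them to no or few reads. Of 47 tested replication-dependent histone genes, of 68 in the files, none was higher and 43 were lower. The median was -7.18 on the log2 scale, or -5.93 where the 13 genes with no read in PRL_Sh are set at their bound (3 reads over the summed gene reads of the group). With no filter on low counts 53 of 59 were lower, with a median of -6.547. As a class the replication-dependent histone genes took 0.0159% ± 0.000832 of gene reads in PRL_Sh and 0.0499% ± 0.01002 in PRL libraries (SD, n = 3 each), a smaller difference than the median of single genes. Hist1h4d, which encodes histone H4, stood at 0.111, 0.0425 and 0 CPM in PRL_Sh libraries and at 46.0, 47.6 and 33.7 CPM in PRL libraries (log2 change -9.52 ± 0.35 SE, adjusted p = 5.87e-07 in edgeR). Hist2h2bb, an H2B gene, had no read in PRL_Sh libraries and 602 in PRL libraries, which makes it at least 484-fold lower. Hist1h1e, a linker histone gene, stood at 1.66, 1.91 and 2.08 CPM in PRL_Sh libraries and at 33.6, 37.5 and 28.3 CPM in PRL libraries. A few members of these clusters went little or not at all with the rest. Hist1h1c, another linker histone gene, stood at 56.5, 59.3 and 55.6 CPM in PRL_Sh libraries and at 90.5, 94.5 and 88.0 CPM in PRL libraries (log2 change -0.67 ± 0.06 SE, adjusted p = 4.58e-05 in edgeR). Hist1h2bc stood at 39.2, 33.5 and 32.9 CPM in PRL_Sh libraries and at 40.1, 40.4 and 36.6 CPM in PRL libraries, a difference that did not pass (adjusted p = 0.181 in edgeR).

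The histone transcript models were searched for signals, the stem-loop at any position and the poly(A) signals near the end. The stem-loop was searched by the letters GG, CTTTT, AG and CC, with 2, 1 and 2 free bases between them, on the transcript strand of every model of a gene, and AATAAA or ATTAAA, the usual signals for adding a poly(A) tail, in the last 40 bases of every model. The stem-loop was present in 32 of 46 replication-dependent histone genes with a model (69.6%), in 1 of 11 replacement histone genes and in 26 of 14264 other coding genes (0.182%). AATAAA or ATTAAA was present in 13 of the 46 (28.3%), in 10 of the 11 and in 12633 of the 14264 (88.6%). All 21 histone genes with the stem-loop and neither signal were lower by 4-fold or more, with log2 changes from -9.52 to -2.63, against 5 of the 11 with both, whose changes ran from -8.37 to 0.25. Most genes without the stem-loop letters were low as well: of 12 with neither the stem-loop nor a signal, 11 were lower by 4-fold or more, with a median of -7.13, and of 2 with a signal alone, 1 was. A match is a description of the models, which may end before or after the true transcript. Replacement histone genes, which are expressed outside DNA replication, split into 2 higher and 3 lower of 11 tested, with a median of 0.13 (7 higher without TMM). H3f3b, an H3.3 gene, averaged 135 CPM in PRL_Sh and 122 CPM in PRL libraries (adjusted p = 0.201 in edgeR), and H3f3a, the other H3.3 gene, stood at 4.32, 4.72 and 4.80 CPM in PRL_Sh libraries and at 17.0, 14.4 and 10.3 CPM in PRL libraries. Histone genes have near-identical copies, so their counts also depend on how reads with several places were left out.

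**Figure D2:**
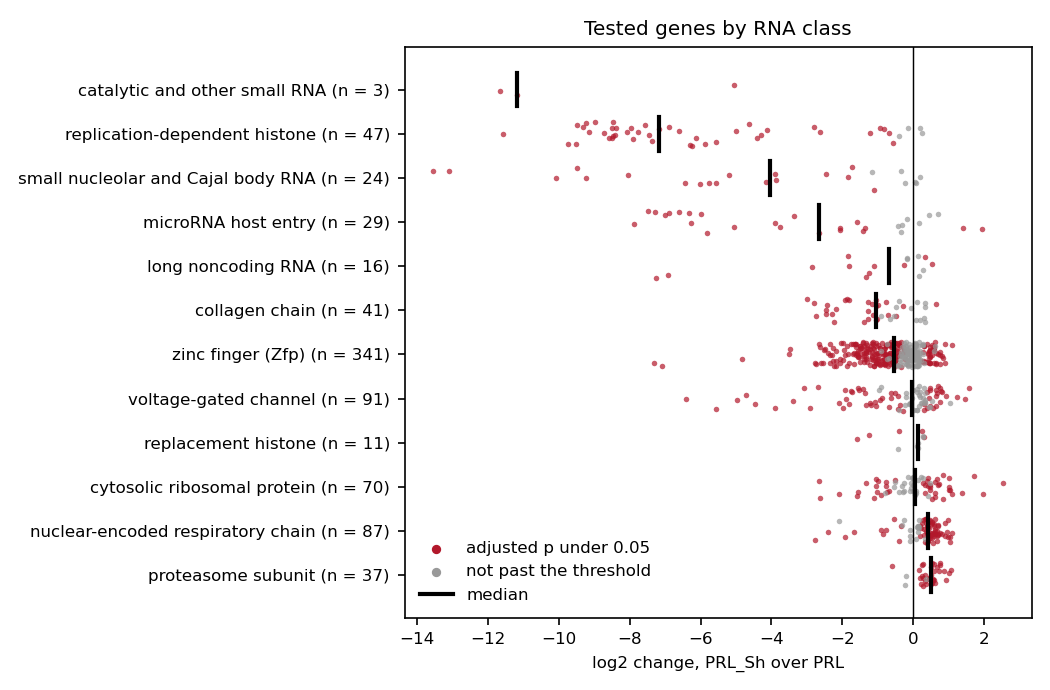
Log2 change of each tested gene, PRL_Sh over PRL, by RNA class; points in red passed the threshold, points in grey did not, and black bars are class medians. The medians run from -11.2 for the catalytic small RNAs and -7.18 for replication-dependent histones to 0.41 for the respiratory chain and 0.49 for the proteasome; genes with no PRL_Sh read are placed at their fitted value, which is no bound.

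Small structured RNAs showed the same direction. All 3 tested catalytic and other small RNAs, of 8 in the files, were lower, with a median of -11.17. With no filter on low counts 4 of 6 were lower and the median was -5.925. RNAs with few PRL_Sh reads could pass the filter through the PRL libraries alone, so the counts of tested RNAs lean to lower calls. Rmrp, the RNA subunit of RNase MRP, stood at 0.591, 0.213 and 0.353 CPM in PRL_Sh libraries and at 1273, 1280 and 1330 CPM in PRL libraries (log2 change -11.66 ± 0.21 SE, adjusted p = 3.42e-08 in edgeR). Rpph1 stood at 0.998, 0.638 and 0.565 CPM in PRL_Sh libraries and at 1662, 1746 and 1721 CPM in PRL libraries. The class took 0.000124% ± 5.17e-05 of gene reads in PRL_Sh and 0.278% ± 0.0094 in PRL libraries (SD, n = 3 each), with 0.285% in Veh libraries. Of 24 tested small nucleolar and Cajal body RNAs, of 114 in the files, none was higher and 18 were lower, with a median of -4.03. This median depended on which RNAs were tested: with no filter on low counts 40 of 102 were lower and the median was -1.77, it was -2.18, -2.16 and -2.54 without PRL replicate 1, 2 and 3, and -6.08 without PRL_Sh replicate 1. Scarna10, a guide RNA of Cajal bodies, had no read in PRL_Sh libraries and stood at 61.6, 61.9 and 60.7 CPM in PRL libraries, at least 1379-fold lower. Scarna2 was at least 1900-fold lower and Snord17 at least 169-fold lower, both with no read in PRL_Sh libraries. Rnu12, the U12 RNA of the minor spliceosome, had no read in PRL_Sh libraries either. Of 11 tested snoRNA host genes, a class set by gene symbol, 1 was higher and none was lower. Snhg12, a member, averaged 5.80 CPM in PRL_Sh and 3.69 CPM in PRL libraries. Whether this class holds the hosts of the small RNAs named above was not checked. Small RNAs inside introns of other genes can share reads with unspliced host RNA, and the strand setting of the counting is not given in the sources used here.

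MicroRNA entries and long noncoding RNAs were mixed. Of 29 tested microRNA entries, of 614 in the files, 2 were higher and 20 lower, with a median of -2.64. Mir138-1 stood at 0.0369, 0.0850 and 0.0353 CPM in PRL_Sh libraries and at 3.64, 3.95 and 5.72 CPM in PRL libraries, and Mir493 had no read in PRL_Sh libraries and 35 reads in PRL libraries. With no filter on low counts 117 entries were lower, and with a filter at 1 CPM in 3 libraries 8. Of 16 tested long noncoding RNAs of a hand-made list, 2 were higher (5 without TMM) and 9 lower, and the list took 0.578% ± 0.0639 of gene reads in PRL_Sh and 4.11% ± 0.0775 in PRL libraries (SD, n = 3 each). Malat1, an abundant RNA of the nucleus, stood at 222, 283 and 228 CPM in PRL_Sh libraries and at 37015, 37421 and 37563 CPM in PRL libraries (log2 change -7.26 ± 0.14 SE, adjusted p = 4.61e-08 in edgeR). Kcnq1ot1, which silences imprinted genes in cis, stood at 3.92, 4.85 and 4.66 CPM in PRL_Sh libraries and at 532, 523 and 562 CPM in PRL libraries. Xist, which silences an X chromosome, stood at 209, 288 and 285 CPM in PRL_Sh libraries and at 2019, 1936 and 1724 CPM in PRL libraries. Other nuclear RNAs of the list did not share this. Neat1, the scaffold of paraspeckles, averaged 1340 CPM in PRL_Sh and 1105 CPM in PRL libraries (adjusted p = 0.0624 in edgeR), and Meg3, an imprinted RNA, averaged 1817 CPM in PRL_Sh and 2069 CPM in PRL libraries (adjusted p = 0.284 in edgeR). Miat, another nuclear RNA, rose to 743, 851 and 957 CPM in PRL_Sh libraries, against 562, 560 and 638 CPM in PRL libraries. By annotated gene type, 28 lncRNA genes were higher (63 without TMM) and 140 lower of 366 tested, with a median of -0.33, and protein-coding genes gave 4316 higher and 4593 lower of 14369.

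Protein-coding genes differed by the length and base composition of their transcripts. Coding genes were put in 4 equal bins. In the bin with the shortest models (312 to 2106 nt in GENCODE M21), 49.9% of genes were higher and 9.57% lower in PRL_Sh, with a median of 0.36. In the bin with the longest (4752 nt or more) 9.12% were higher and 67.2% lower, with a median of -0.69. By GC content, 7.83% of genes were higher and 60.5% lower in the lowest bin (32.6% to 45.5% GC), against 56.0% higher and 8.78% lower in the highest (55.0% to 71.3% GC). Across 14300 coding genes with a model (99.5% of those tested), Spearman's rho with the log2 change was -0.48 for transcript length, -0.35 for the 3′ UTR, -0.33 for the coding part and 0.52 for GC content; genes share these libraries and are not independent replicates. The 262 coding genes lower by 8-fold or more had a median model of 5987 nt and 45.001% GC, the 321 higher by 2-fold or more 1598 nt and 56.5% GC, and all tested coding genes 3259 nt and 50.2% GC. Replication-dependent histone genes, of which 43 of 47 tested were lower, are among the coding genes of these bins and sets.

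**Figure D3:**
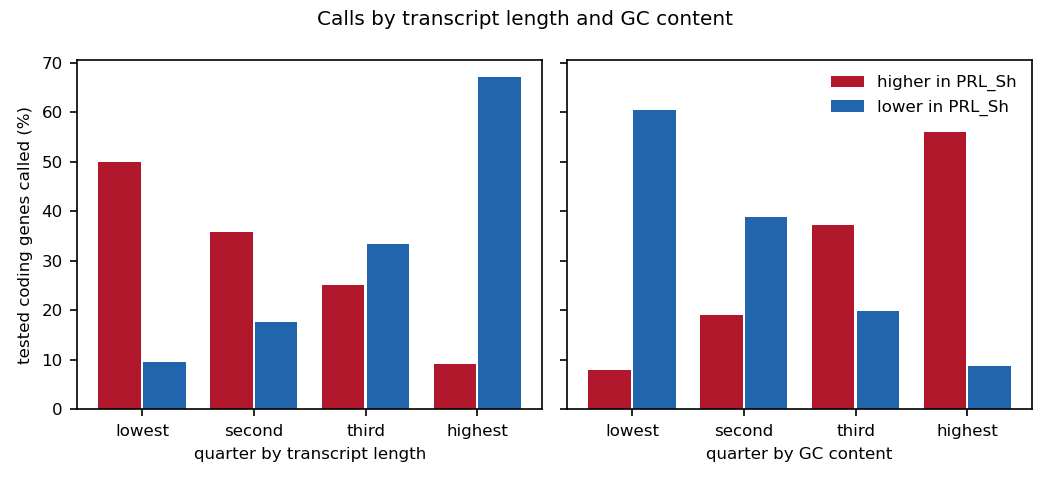
Share of tested coding genes (%) that were higher (red) or lower (blue) in PRL_Sh, by bin of transcript length (left) and of GC content (right), each bin with 3575 genes. Lower calls go from 9.57% in the shortest bin to 67.2% in the longest, and from 60.5% in the bin of lowest GC content to 8.78% in the highest.

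Some coding genes were as far down in PRL_Sh libraries as the RNAs without a tail. Zbed6, a zinc-finger repressor of Igf2 in muscle, stood at 0.406, 0.808 and 0.353 CPM in PRL_Sh libraries and at 184, 171 and 164 CPM in PRL libraries (log2 change -8.39 ± 0.20 SE, adjusted p = 1.22e-07 in edgeR). Lnpep, an aminopeptidase that travels with the glucose transporter GLUT4, stood at 4.84, 5.27 and 4.41 CPM in PRL_Sh libraries and at 502, 486 and 515 CPM in PRL libraries. The groups were far apart for both. The zinc finger gene Zfp369, Lcor, a corepressor of nuclear receptors, and Lmbrd2 averaged 0.181, 0.231 and 0.828 CPM in PRL_Sh libraries, against 29.7, 30.0 and 97.7 CPM in PRL libraries. Of 341 tested genes with a Zfp symbol 41 were higher and 195 lower, with a median of -0.54, Zfp407 and Zfp871 among them at -2.75 and -2.18. Zbed6 lies within another gene, so its reads depend on how overlaps were counted. Among the largest falls, Ttn, the giant protein of the sarcomere, stood at 17.0, 75.9 and 6.50 CPM in PRL_Sh libraries and at 20368, 3273 and 390 CPM in PRL libraries, where the muscle markers were uneven.

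**Figure D4:**
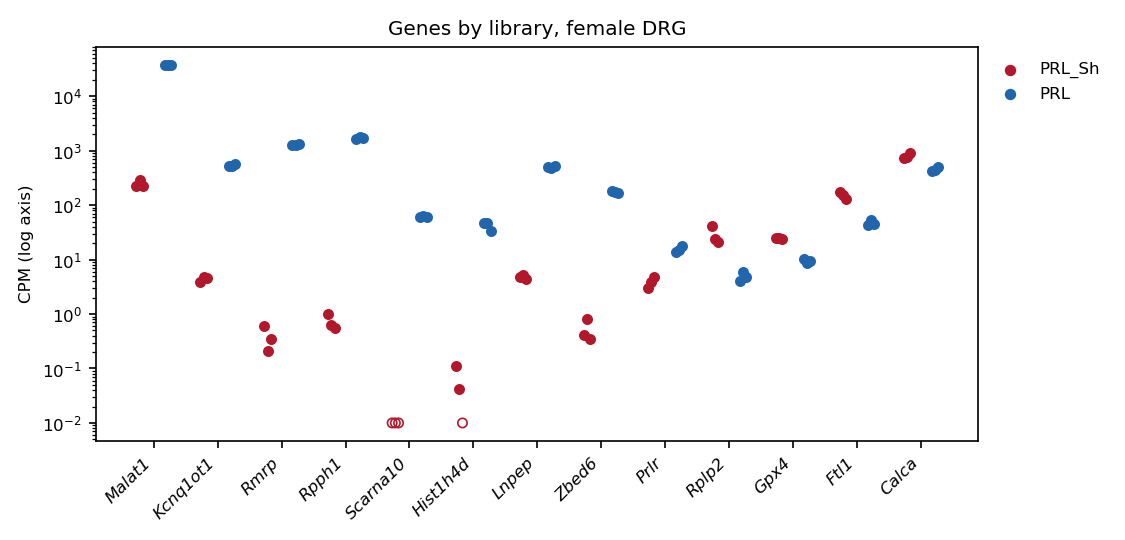
CPM on a log axis of 13 genes in each of 3 PRL_Sh (red) and 3 PRL (blue) libraries; open circles are libraries with no read, drawn at 0.01. Malat1 to Prlr lie lower in PRL_Sh libraries and Rplp2 to Calca higher, with no overlap between the groups for any of the 13. Most of these genes were named through their calls, so this was largely set by the choice. Over all tested genes the groups did not overlap for 67.9%.

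Changes upward in PRL_Sh libraries were smaller. Rplp2, a protein of the ribosomal stalk, stood at 40.6, 23.8 and 21.3 CPM in PRL_Sh libraries and at 3.98, 5.88 and 4.69 CPM in PRL libraries (log2 change 2.55 ± 0.29 SE, adjusted p = 0.000152 in edgeR). Ftl1, the ferritin light chain, stood at 175, 154 and 132 CPM in PRL_Sh libraries and at 43.3, 52.5 and 44.4 CPM in PRL libraries. Gpx4, which protects membrane lipids from peroxidation, stood at 24.4, 25.3 and 23.7 CPM in PRL_Sh libraries and at 10.3, 8.48 and 9.27 CPM in PRL libraries. Dohh, an enzyme that completes hypusine in eIF5A, averaged 51.3 CPM in PRL_Sh and 17.9 CPM in PRL libraries. Several of these genes have processed copies in the genome, so their counts depend on reads with several places. Of 37 tested proteasome subunits, which degrade ubiquitin-tagged proteins, 33 were higher and 1 was lower, with a median of 0.49; Psmb6 averaged 110 CPM in PRL_Sh and 60.5 CPM in PRL libraries. Of 87 nuclear-encoded genes of the respiratory chain, 62 were higher and 10 lower, with a median of 0.41. Ndufa4 averaged 175 CPM in PRL_Sh and 93.9 CPM in PRL libraries, and Ndufb4 stood at 5.62, 5.78 and 6.64 CPM in PRL_Sh libraries and at 25.8, 20.8 and 21.98 CPM in PRL libraries. Cytosolic ribosomal protein genes split, with 27 higher and 17 lower of 70 and a median of 0.04. Rpl39, a protein of the large subunit, stood at 11.4, 12.9 and 13.4 CPM in PRL_Sh libraries and at 52.8, 51.7 and 55.5 CPM in PRL libraries.

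Genes of sensory neurons moved in both directions. Of 24 tested nociceptor genes 14 were higher and 2 lower, with a median of 0.44. Calca, which encodes the neuropeptide CGRP, stood at 748, 766 and 911 CPM in PRL_Sh libraries and at 416, 448 and 491 CPM in PRL libraries (log2 change 0.84 ± 0.10 SE, adjusted p = 0.000192 in edgeR). Scn9a, a sodium channel of pain-sensing neurons with a long transcript (9840 nt), stood at 115, 218 and 217 CPM in PRL_Sh libraries and at 674, 659 and 744 CPM in PRL libraries. Th, which makes catecholamine precursors in low-threshold touch neurons, and the neuropeptide gene Gal averaged 83.2 and 11.1 CPM in PRL_Sh libraries, against 32.4 and 3.97 CPM in PRL libraries. Of 15 genes of myelinated sensory neurons 7 were higher and 5 lower (46.7% and 33.3%, beside 29.3% and 32.3% of all tested genes). Nefl, a neurofilament subunit, averaged 4299 CPM in PRL_Sh and 2319 CPM in PRL libraries. Ntrk3, the NT-3 receptor, averaged 39.5 CPM in PRL_Sh and 202 CPM in PRL libraries. The count of higher genes in this list was 4 without PRL replicate 1, without PRL replicate 2 and without replicate 1 of both groups. Voltage-gated channel genes gave 22 higher and 36 lower of 91 (24.2% and 39.6%, beside 29.3% and 32.3% of all tested genes). Their median was -0.02, or 0.21 without TMM, where 35 were higher. The potassium channel genes Kcnb2, Kcng3 and Kcnh7 averaged 7.60, 0.711 and 4.16 CPM in PRL_Sh libraries, against 199, 34.2 and 130 CPM in PRL libraries. Among Schwann and satellite glia genes 4 were higher (7 without TMM) and 3 lower of 16, with Apoe, which carries lipids, at 1817 CPM in PRL_Sh and 1157 CPM in PRL libraries and Cdh19, a cadherin of Schwann cells, at 89.3 CPM in PRL_Sh and 251 CPM in PRL libraries.

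Most markers of connective tissue and fat were lower in PRL_Sh libraries, while few of the muscle genes passed. Of 16 fibroblast and matrix genes 15 were lower, with a median of -1.16. Fbn1, which forms elastic microfibrils, averaged 61.0 CPM in PRL_Sh and 331 CPM in PRL libraries. Col3a1, a fibrillar collagen chain, stood at 340, 336 and 274 CPM in PRL_Sh libraries and at 1350, 1763 and 1212 CPM in PRL libraries. Over all collagen chains 27 were lower and 1 was higher (8 without TMM) of 41, with a median of -1.05. Of 10 adipocyte genes 9 were lower, and Plin1, which coats lipid droplets, averaged 1.21 CPM in PRL_Sh and 6.61 CPM in PRL libraries. The summed CPM of the adipocyte list was highest in PRL replicate 1, as given above. Of 20 muscle genes 5 were lower (25%, beside 32.3% of all tested genes). The count was 3 without PRL replicate 1, 8 without PRL replicate 3 and 2 without replicate 1 of both groups, where the median of the list was 0.01 in place of -2.04. Of 11 bone and cartilage genes 8 were lower, 5 without TMM, with the 1 CPM filter, with the replicate block, without PRL replicate 1 or without PRL_Sh replicate 2, and 4 without replicate 1 of both groups. Of 17 cell cycle genes 1 was higher and 8 lower, with Mki67, a marker of dividing cells, at 7.73 CPM in PRL_Sh and 84.6 CPM in PRL libraries; 4 were lower without PRL replicate 2 and without PRL_Sh replicate 3, and 5 without PRL_Sh replicate 2 and without TMM. Of 18 macrophage genes 1 was higher and 7 lower (38.9%, beside 32.3% of all tested genes). Mrc1, the mannose receptor, was at 17.1 CPM in PRL_Sh and 68.7 CPM in PRL libraries. The median of the list was -0.13, or 0.10 without TMM, where 4 were lower. Endothelial and mural genes gave 2 higher and 8 lower of 15, with 5 lower without PRL replicate 1 and 3 lower without TMM. Among 6 lymphocyte genes 4 were lower, among 12 neutrophil and marrow genes 2, among 5 erythrocyte genes 3 and among 7 oligodendrocyte and astrocyte genes 2, with none higher in these 4 lists in the fit of all 6 libraries, while keratinocyte genes gave 4 higher and 1 lower of 8 and none of 3 motor and spinal neuron genes passed. Hba-a1, Hba-a2, Hbb-b1 and Hbb-b2, the globin genes, were listed at 0 in all 6 libraries. These short lists turned on single libraries. Of neutrophil and marrow genes 12 of 13 were lower without PRL replicate 3, and 1 of 13 without PRL replicate 1 or 2. Without PRL replicate 2 no erythrocyte gene was lower and 1 was higher. Oligodendrocyte and astrocyte genes gave 4 lower and none higher without PRL_Sh replicate 1, 3 higher and 1 lower without PRL_Sh replicate 3, and 1 lower without PRL_Sh replicate 2 or any 1 PRL library, with 1 higher in the fit without PRL replicate 3. In bulk tissue fewer cells of a type, less RNA per cell and the kit cannot be told apart in these values. The part of transcript length in these lists was not tested.

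Prlr, the prolactin receptor, was lower in PRL_Sh libraries. It stood at 2.99, 3.95 and 4.77 CPM in PRL_Sh libraries, against 13.8, 14.9 and 18.1 CPM in PRL libraries (log2 change -1.99 ± 0.20 SE, adjusted p = 8.66e-05 in edgeR). The longest Prlr model has 9900 nt, which puts it in the longest bin of coding genes, where 67.2% were lower. Of 17 prolactin and JAK-STAT5 genes 2 were higher and 5 lower, with a median of -0.09 that was 0.14 without TMM. Jak2, the kinase bound to the receptor, averaged 38.5 CPM in PRL_Sh and 70.2 CPM in PRL libraries, and Igf1, an insulin-like growth factor, 11.5 CPM in PRL_Sh and 75.005 CPM in PRL libraries. Prl itself was listed at 0 in all 6 libraries. Of 23 translation control genes 5 were higher and 11 lower, with a median of -0.08 that was 0.15 without TMM. Cpeb4, a translation regulator, stood at 2.51, 5.82 and 2.93 CPM in PRL_Sh libraries and at 81.6, 72.1 and 81.3 CPM in PRL libraries. Of 14 clock genes 5 were higher and 6 lower (3 lower without TMM, where the median was 0.02 in place of -0.21). Dbp, a clock output factor, stood at 52.5, 51.7 and 43.0 CPM in PRL_Sh libraries and at 16.5, 18.9 and 13.6 CPM in PRL libraries, and Clock, which drives the cycle, at 38.5, 45.3 and 38.3 CPM in PRL_Sh libraries and at 167, 163 and 154 CPM in PRL libraries. Interferon-response genes gave 6 higher and 2 lower of 18, and none in either direction in the fit of all 9 female DRG libraries. That fit adds the Veh libraries, where these genes summed to 1301, 423 and 342 CPM. They summed to 388, 540 and 524 CPM in PRL_Sh libraries and to 390, 382 and 434 CPM in PRL libraries. The part of Veh replicate 1 in the loss of calls was not tested. Immediate early genes gave 4 higher and 5 lower of 16, glucocorticoid-response genes 2 higher and 5 lower of 14 (4 and 3 without TMM) and nerve injury genes 4 higher and 2 lower of 11. Over all tested genes 29.3% were higher and 32.3% lower, and immediate early genes stood near that, at 25% and 31.25%. The shares were 14.3% and 35.7% for glucocorticoid-response genes, 36.4% and 18.2% for nerve injury genes and 35.7% and 42.9% for clock genes. For prolactin and JAK-STAT5 genes they were 11.8% and 29.4%, the lower share being near that of all tested genes. They were 21.7% and 47.8% for translation control genes and 33.3% and 11.1% for interferon-response genes.

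Against Veh, the other rRNA-depleted group of female DRG, PRL_Sh libraries differed in 4514 genes upward and 4325 downward of 14973 (59%; 30.1% higher and 28.9% lower), with 1.58% higher and 13.5% lower by 2-fold or more. Without TMM 6334 were higher and 3425 lower. PRL_Sh libraries are shared by both comparisons, so the values are given side by side. Prlr averaged 3.87 ± 0.88 CPM in PRL_Sh, 15.2 ± 2.20 CPM in PRL and 13.5 ± 1.53 CPM in Veh libraries (SD, n = 3 each, scaled over the 9 libraries). For Wdfy1, Tmem181b-ps and Nnt, PRL stood apart from both. Wdfy1, an endosomal protein gene, averaged 24.998 ± 2.65 CPM in PRL_Sh, 91.6 ± 1.43 CPM in PRL and 32.3 ± 2.18 CPM in Veh libraries. Tmem181b-ps, a pseudogene, averaged 13.2 ± 1.00 CPM in PRL_Sh, 47.9 ± 3.23 CPM in PRL and 14.7 ± 1.93 CPM in Veh libraries (PRL_Sh against Veh, adjusted p = 0.299 in edgeR). Nnt, a mitochondrial transhydrogenase whose gene is known to differ between C57BL/6J and other C57BL/6 substrains, averaged 18.5 ± 1.06 CPM in PRL_Sh, 53.2 ± 12.8 CPM in PRL and 21.3 ± 1.66 CPM in Veh libraries (PRL_Sh against Veh, adjusted p = 0.0956 in edgeR). Gabra2, a GABA-A receptor subunit also known to differ between substrains, was spread over all 3 groups. It averaged 6.26 ± 2.42 CPM in PRL_Sh, 60.7 ± 1.42 CPM in PRL and 24.3 ± 1.71 CPM in Veh libraries. Entpd4, a nucleotide-hydrolysing enzyme gene, was spread likewise, at 184.5 ± 6.02 CPM in PRL_Sh, 69.8 ± 5.98 CPM in PRL and 132.7 ± 2.70 CPM in Veh libraries. Zbtb16, a gene induced by glucocorticoids, was spread over all 3 groups, at 7.0007 ± 0.88 CPM in PRL_Sh, 25.5 ± 1.85 CPM in PRL and 102.9 ± 10.4 CPM in Veh libraries. These genes were listed because earlier results of these data pointed to them. PRL and Veh libraries are both rRNA-depleted, and whether mouse background differed between the groups was not tested.

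The shift between PRL_Sh and PRL was not the same in DRG as in female paw, whose PRL_Sh and PRL libraries carry the same labels. In paw 4356 genes were higher and 4297 lower of 14800 (58.5%). The difference of the shifts, DRG minus paw, passed for 6223 of 16110 genes (38.6%), with 2050 more positive in DRG and 4173 more negative; 6.95% of the tested genes were more positive and 12.4% more negative by 2-fold or more. This balance turned with the scaling, to 3031 and 2708 with RLE factors, and the median difference of all genes was 0.02 in place of -0.19. The 10 genes with the smallest p passed under every alternative tried, but the alternatives refit the libraries that chose them, so this is no separate support. Zbed6 changed by -8.39 ± 0.20 in DRG and by -2.11 ± 0.13 in paw on the log2 scale (SE; difference -6.34, adjusted p = 2.03e-07 in edgeR). Lnpep changed by -6.69 ± 0.09 in DRG and by -2.04 ± 0.21 in paw (SE; difference -4.72). Eif2c3 (Ago3), an Argonaute gene, Mib1, a ubiquitin ligase of Notch signalling, and Tnpo1, a nuclear import receptor, had differences of -3.20, -2.85 and -2.29. Col14a1, a collagen of tendon and skin, went the other way, with -1.28 ± 0.12 in DRG and -4.92 ± 0.16 in paw (SE; difference 3.58). Malat1 fell by 7.26 in DRG and by 5.01 in paw on the log2 scale (difference -2.31, adjusted p = 0.000164 in edgeR). Replication-dependent histones had medians of -7.18 in DRG and -7.36 in paw, proteasome subunits of 0.49 and 1.01, and respiratory chain genes of 0.41 and 1.55, in the same order; the difference of these medians was not tested.

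**Figure D5:**
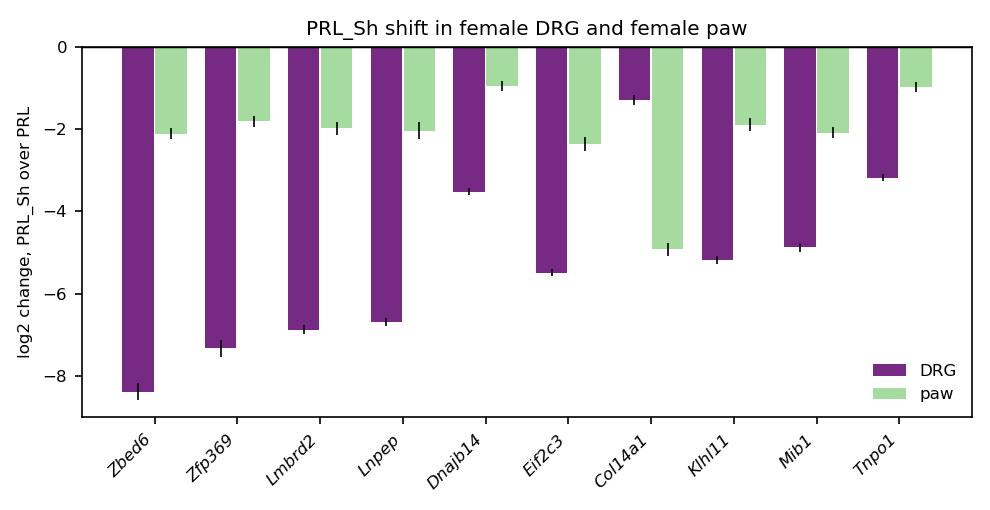
Log2 change, PRL_Sh over PRL, with its standard error, in female DRG (purple) and female paw (green) for the 10 genes with the smallest p for the difference of the shifts. For 9 genes the DRG bar is the longer one, as for Zbed6 (-8.39 in DRG and -2.11 in paw), and Col14a1 is the exception (-1.28 in DRG and -4.92 in paw).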

How the data were processed

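Counts are the values used: whole reads per gene, 22609 genes and 5 summary lines per library, deposited by the authors without normalisation. Per the submitters' processing notes, bcl2fastq, TopHat2, HTSeq and the mm9 assembly were used; which versions, HTSeq mode and strand option they used is not given in the sources used here. Per the labels' protocols, reads were single and of 50 nt. Summary lines stayed out of library sizes and tests.

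Tests used filterByExpr, TMM, glmQLFit and glmQLFTest of edgeR 4.0.16 (R 4.3.3), with Benjamini-Hochberg adjusted p under 0.05 as the call. PRL_Sh against PRL and against Veh were each fitted on 6 libraries, the tissue difference on 12. Summary shares were tested by exact permutation. Alternatives were RLE, no TMM, no filter, 1 CPM in 3 libraries, DESeq2 1.42.0, the replicate block, each library left out, all 9 libraries, and no RNAs lacking a tail; the fit of 2 against 2 libraries was chosen after seeing the data. The members, lists and tests were chosen with earlier results of these data known. Genes were named by rule: Prlr; the 15 largest changes per direction among called genes whose groups do not overlap and whose average log2 CPM reaches 3; up to 6 per class and 4 per list by p; all tested genes of 4 short lists; and 10 for the tissue difference. Other genes were chosen after their values were seen, the inhibitory neuron genes among them, as are Hist1h1c, Hist1h2bc, Hist1h3b, Hist3h2a, Snord17, Scn10a, Prl and the globins.

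Of the symbols, 20043 were current in RefSeq (GRCm38.p6), 2327 older names and 239 unmatched; lengths, gene types and sequences come from GENCODE M21 and RefSeq on GRCm38, not the build of the counts. Replicate libraries differed by more than sampling noise. On simulated counts for PRL_Sh against PRL (14985 genes), 74.5% of 98 genes changed 2-fold and 100% of 102 changed 4-fold were recovered. Only 200 genes were changed, in both directions alike and none with few reads, while 61.6% of genes were called in the data. Recovery in the data may therefore differ. Bounds for counts of 0 cover counting error only, and depth was 21.96 to 26.5 M gene reads in PRL_Sh and 9.35 to 11.2 M in PRL libraries.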

Additional observations from a re-analysis of the deposited data

Results flagged for a closer look

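The size of the shift from PRL to PRL_Sh libraries differed between DRG and paw by a test of the difference itself. It passed in edgeR for 2050 genes more positive in DRG and 4173 more negative, of 16110 tested. The 10 genes with the smallest p were Zbed6 (difference -6.34 on the log2 scale), Zfp369 (-5.58), Lmbrd2 (-4.96), Lnpep (-4.72), Klhl11 (-3.35), Eif2c3 (-3.20), Mib1 (-2.85), Dnajb14 (-2.63), Tnpo1 (-2.29) and Col14a1 (3.58). Over the 19 settings tried, the adjusted p of these 10 in those fits did not exceed 5.05e-05. The 10 were picked by this p and the settings refit the same libraries, so low values were largely set by the choice. What sets these genes apart was not tested. Groups of 3 libraries are too small for a test of single outlying libraries.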

How the results depend on the processing

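For PRL_Sh against PRL, counts in each direction stayed within 1.5 times of 4392 and 4843 under every alternative, and no gene called was called in the opposite direction. Without TMM 945 genes were higher by 2-fold or more in place of 342, and 8034 of 9235 calls (87.0%) were kept, the median of all genes shifting to 0.22. The replicate numbers do not pair the libraries (correlations of same-numbered libraries -0.028, 0.003 and 0.302); the replicate block gave 4350 genes higher and 4747 lower, and 4473 and 4278 against Veh. Without replicate 1 of both groups 3684 were higher and 4184 lower. Against Veh no count moved by over 1.5 times, though without TMM 6334 were higher and 3425 lower.

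The tissue difference was the least stable. Its 2050 genes more positive and 4173 more negative in DRG became 3031 and 2708 with RLE, 3394 and 2413 without TMM, 3638 and 2006 with no filter, 3313 and 2976 with DESeq2 and 1853 and 3816 with the replicate block. Leaving out single libraries gave 1642 to 3192 more positive and 2016 to 4228 more negative, the turn coming without DRG PRL replicate 3 (3192 and 2016); the cause was not tested.

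Differences in the summary shares kept their direction throughout; among uniquely placed reads the exact p was also 0.10, and 0.20 is the smallest that 2 against 3 allows. Of 218 named genes 36 changed their call under at least 1 alternative and none that was called changed sign. Simulated counts with 200 genes changed gave 47.1% recovery of 2-fold differences between tissues (16110 genes).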
